A study of Homo sapiens with 28 samples.

Results

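Peaks of N6-methyladenosine (m6A) on RNA bound to chromatin (caRNA), recovered by fractionating cells, were examined at 10 genes of the erythroid transcription factor network: GATA1, GATA2, TAL1, KLF1, LMO2, NFE2, ZFPM1, GFI1B, BCL11A and RUNX1. They are 10 of 18356 annotated genes with a peak in at least 1 of 14 immunoprecipitated (IP) libraries. The genes were taken as a list, and a peak was given to a gene when its summit lay between 1000 bases upstream of the gene start and the gene end. Peaks on the strand of the gene (sense) and on the other strand (antisense) were kept apart. The groups were unmodified HepG2 cells, a hepatoma line (HepG2 WT, n = 2), unmodified K562 cells, a myelogenous leukaemia line with erythroid features (K562 WT, n = 2), K562 cells with a control short hairpin RNA (K562 Control, n = 2) or one against RBFOX2 (K562 RBFOX2 KD, n = 2), and NB4 cells, an acute promyelocytic leukaemia line, with the same kinds of hairpin (NB4 Control and NB4 RBFOX2 KD, n = 3 each). RBFOX2 is an RNA-binding protein that the study connects with m6A on caRNA. Each list describes 1 library of 1 established line, and the study's methods speak of biological replicates without saying whether they were separate cultures, so the p-values measure the spread between these libraries.

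The m6A mark is placed on nascent RNA by a methyltransferase complex and is often found in long internal exons and around stop codons of transcripts. Red cell identity rests on a small set of DNA-binding proteins. GATA1 and, in progenitors, GATA2 bind GATA sites. TAL1, a basic helix-loop-helix protein, joins them through the bridging protein LMO2, and ZFPM1 (FOG1) is the cofactor of GATA1. KLF1 and NFE2 activate globin and other red cell genes, GFI1B is a repressor needed for erythroid and megakaryocytic cells, BCL11A silences fetal globin, and RUNX1 is required for blood stem cells, megakaryocytes and myeloid cells. K562 cells make embryonic and fetal globin, whereas NB4 cells belong to the granulocytic lineage. A peak needs RNA as well as methylation, and the lists hold no transcript levels, so a gene without RNA and a gene with unmethylated RNA cannot be told apart below.

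The lists held 22700 to 44088 peaks. Read depth, recovered from 11 lists and given in M (1e+06 reads), ranged from 10.8 to 25.6 M and was higher in K562 WT (24.9 and 25.6 M) than in K562 Control (14.8 and 19.5) or KD (12.6 and 16.42), and higher in NB4 KD (16.8 to 21.9) than in NB4 Control 1 and 2 (10.8 and 14.1). In HepG2 WT and NB4 Control 3 it could not be recovered exactly. The lines were checked against their labels by marker genes. The 10 promyelocytic markers together held 28 to 35 peaks in NB4 libraries, 2 to 9 in K562 and 3 or 4 in HepG2, with MPO listed in every NB4 library and in no other. Of the 10, 8 were listed in every NB4 library, and 6 of 9 tested passed as higher in NB4 (13.8% of all tested genes did). ELANE had no peak in any library, and CSF3R had a higher mean in HepG2 (2) than in K562 (0.333). The 10 erythroid markers held 45 to 59 peaks in K562 libraries, 7 to 12 in NB4 and 4 to 6 in HepG2, although ALAS2, the erythroid enzyme of haem synthesis, had no peak in any library. HBG2 and HBE1, which share peaks, made up most of the K562 sum, and the other 8 markers held 10 to 19 peaks in K562, 7 to 12 in NB4 and 4 to 6 in HepG2, so that K562 and NB4 overlapped. TFRC (2.5 ± 0.548 in K562, 3.5 ± 0.837 in NB4) and SLC25A37 (3.33 ± 0.516 and 4.83 ± 1.17, SD, n = 6 each) had the higher mean in NB4, without passing the test. The 10 hepatocyte markers held 21 to 34 peaks in HepG2, 0 to 4 in K562 and 0 in NB4. Of these, 5 were listed in both HepG2 libraries. ALB and AFP had no peak in any library, and APOB ranged from 0 to 11 between the HepG2 libraries.

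The 10 genes fell into 3 patterns between K562 and NB4. TAL1, KLF1 and GFI1B held more peaks in K562, and BCL11A, RUNX1, ZFPM1 and LMO2 held more in NB4, all by an exact permutation test across all genes. All of these stood at the smallest p that 6 against 6 libraries allow (exact permutation p = 0.00216, adjusted p = 0.00967), so their p-values do not rank them. GATA2 and NFE2 had similar numbers of peaks in both lines, and GATA1 lay between, with peaks in every K562 library but only in KD libraries of NB4. Thus 3 of 10 genes passed as higher in K562, where 19.6% of the 16227 tested genes did, and 4 of 10 as higher in NB4, where 13.8% did. The median difference (K562 minus NB4) was −0.25 peaks over the 10 genes and 0.167 over all tested genes. TAL1 and KLF1 were listed in all 6 K562 libraries and in no other, a pattern seen in 6.17% of genes with a peak, and BCL11A in all 6 NB4 libraries and in no other, which held for 3.31%. A difference between lines cannot be told apart from a difference between the series of libraries made from them.

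**Figure D1:**
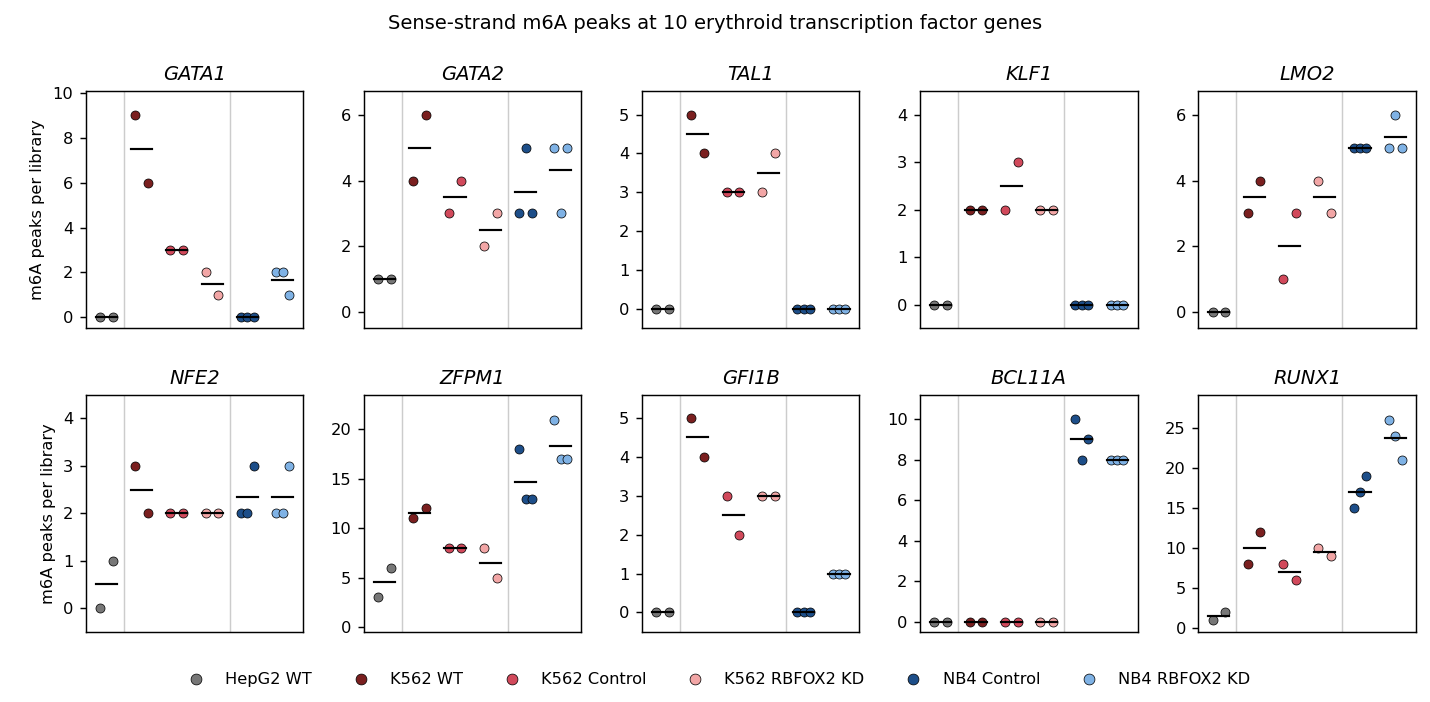
Number of sense-strand m6A peaks per library (y axis, linear, own scale per gene) at each of the 10 genes in 6 groups. Points are libraries and bars are group means. TAL1 and KLF1 are at 0 in all HepG2 and NB4 libraries and BCL11A is at 0 in all HepG2 and K562 libraries, whereas the NB4 libraries lie above all K562 libraries for LMO2, ZFPM1 and RUNX1.

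Among the genes listed in K562 alone, KLF1 and TAL1 carried peaks in their last exons that ranked near the top of every K562 list. The stretches printed here are the letters around the summits on the RNA strand (hg38, 5′ to 3′, DNA letters). They are shown because they include regions listed in K562 alone. Of the regions listed in all K562 libraries and in no other, those in KLF1 intron 1 and TAL1 intron 3 are not printed. The GFI1B last exon and GATA1 intron 1, which NB4 KD libraries also listed, were added for comparison. Capitals mark matches to the usual m6A context DRACH, in which D is A, G or T, R is A or G, and H is A, C or T. In untranslated regions (UTRs) 30 bases around the match nearest to the summit are given.
KLF1 last exon, 3′ UTR, chr19:12884742-12884771, minus strand: tGGACCctctcctGGACTcgcgttcccaaa
TAL1 last exon, 3′ UTR, chr1:47219597-47219626, minus strand: gaagcaaggcggtGGACTtGAACTttcctg
GFI1B last exon, 3′ UTR, chr9:132991186-132991215, plus strand: gaaattgctgtgTGACCttgggcaagtcac
GFI1B intron 5, chr9:132989412-132989512, plus strand: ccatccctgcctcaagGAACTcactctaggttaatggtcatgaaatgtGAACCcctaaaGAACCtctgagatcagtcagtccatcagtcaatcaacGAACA
GATA1 exon 6, coding, chrX:48793767-48793867, plus strand: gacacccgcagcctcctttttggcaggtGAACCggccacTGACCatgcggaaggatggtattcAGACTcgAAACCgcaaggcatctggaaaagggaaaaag
GATA1 intron 1, chrX:48790555-48790655, plus strand: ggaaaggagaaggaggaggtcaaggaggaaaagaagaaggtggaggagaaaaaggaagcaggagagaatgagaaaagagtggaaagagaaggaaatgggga

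KLF1, the erythroid Kruppel-like factor (chr19:12884422-12887201, minus strand, 3 exons), held 2 and 2 peaks in K562 WT, 2 and 3 in Control, and 2 and 2 in KD, and 0 in every HepG2 and NB4 library. The K562 mean was 2.17 ± 0.408 peaks (SD, n = 6), with an exact permutation adjusted p of 0.00967 against NB4. The merged region chr19:12884298-12886627 covered exons 2 and 3 and ran past the annotated gene end, and its highest summit lay 136 bases after the first base of the stop codon in 5 libraries and 133 bases after it in K562 WT 1. That summit ranked 161st and 30th by q in the K562 WT lists, 29th and 22nd in Control, and 50th and 110th in KD, out of 35619 to 44088 peaks. The fold at the summit over local background was 26.5 and 31.3 in WT, 58.1 and 45.8 in Control, and 52.9 and 49.5 in KD. All 6 K562 libraries therefore placed KLF1 within the first 161 peaks of their lists. Another region, in intron 1 (chr19:12886888-12887147) was also listed in all 6 K562 libraries and in no other, at rank percentiles from 36.1 to 69.5, where 100 is the peak with the highest −log10 q of its own list.

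TAL1, the helix-loop-helix partner of GATA1 (chr1:47216290-47232225, minus strand, 5 exons), held 5 and 4 peaks in K562 WT, 3 and 3 in Control, and 3 and 4 in KD, and 0 in HepG2 and NB4. Its K562 mean was 3.67 ± 0.816 peaks (SD, n = 6; exact permutation adjusted p = 0.00967 against NB4). The region chr1:47218920-47220301 in exon 5 carried the main summit 92 to 94 bases after the start of the stop codon in all 6 libraries. Reads stacked at that summit numbered 539 and 510 in WT, 480 and 409 in Control, and 484 and 425 in KD, over local means of 26.9, 23.3, 8.34, 11.05, 9.25 and 7.08 in the same order. The rank percentile was lowest in K562 Control 2 (98.4) and highest in K562 Control 1 (99.6). A narrower region, chr1:47224021-47224211, across the boundary of intron 3 and exon 4, was again listed in the 6 K562 libraries alone, at percentiles from 42.0 to 81.6.

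GFI1B, a zinc finger repressor (chr9:132944000-132991687, plus strand, 7 exons in the canonical transcript), held 5 and 4 peaks in K562 WT, 3 and 2 in Control, and 3 and 3 in KD. It had none in HepG2 or NB4 Control and 1 in each NB4 KD library. The means were 3.33 ± 1.03 in K562 and 0.5 ± 0.548 in NB4 (SD, n = 6 each; exact permutation adjusted p = 0.00967). Peaks over introns 4 and 5 (chr9:132988571-132989861) were present in all 6 K562 libraries and in no other, and their highest percentile was 58.6 and 55.8 in WT against 87.3 to 91.5 in the 4 hairpin libraries. WT and hairpin libraries did not overlap at this region. The last exon region (chr9:132990971-132991684) was listed in all 6 K562 libraries at percentiles from 77.3 to 88.8, with the summit 170 to 174 bases after the start of the stop codon.

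GATA1 (chrX:48786540-48794311, plus strand, 6 exons) differed most within K562. It held 9 and 6 peaks in K562 WT, 3 and 3 in Control, 2 and 1 in KD, 0 in HepG2, 0 in NB4 Control, and 2, 2 and 1 in NB4 KD. The line means were 4.0 ± 2.97 in K562 and 0.833 ± 0.983 in NB4 (SD, n = 6 each), and the difference did not pass across all genes (exact permutation p = 0.0238, adjusted p = 0.0680). By the rank percentile of the highest peak the lines did not overlap (58.0 to 97.0 in K562, 0 to 23.4 in NB4), and this measure passed (exact permutation adjusted p = 0.00649). So did 5075 of all 16227 tested genes as higher in K562 by this measure. With all lists cut to the same length the peak number passed as well (exact permutation adjusted p = 0.00985), whereas without K562 WT the adjusted p was 0.215.

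Within GATA1, 2 kinds of region behaved differently. The coding region of exon 6 (chrX:48793602-48794236), with summits at −360 to −319 bases from the stop codon, was listed in all 6 K562 libraries and in no other, at percentiles of 54.3 and 66.6 in WT, 77.7 and 59.8 in Control, and 58.0 and 59.0 in KD. Intron 1, in contrast, held its strong peaks in WT cells. The region chrX:48790360-48790898 reached percentiles of 95.2 and 97.0 in K562 WT, with 605 and 616 reads at the summit over local means of 81.3 and 71.8. It reached 5.37 in K562 Control 1 and 0.826 in KD 1, and was not listed in K562 Control 2 or KD 2. NB4 KD libraries had it at 12.6, 23.4 and 2.57, with 52, 54 and 34 reads, and NB4 Control libraries did not list it. The WT libraries were the deepest of K562. With all lists scaled to the depth of the shallowest one, GATA1 held 9, 6, 3, 3, 2 and 1 peaks in the K562 libraries. That scaling acted on peaks already called and kept 42804 of 44088 peaks in K562 WT 1. The part of depth in the GATA1 numbers was therefore not tested.

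**Figure D2:**
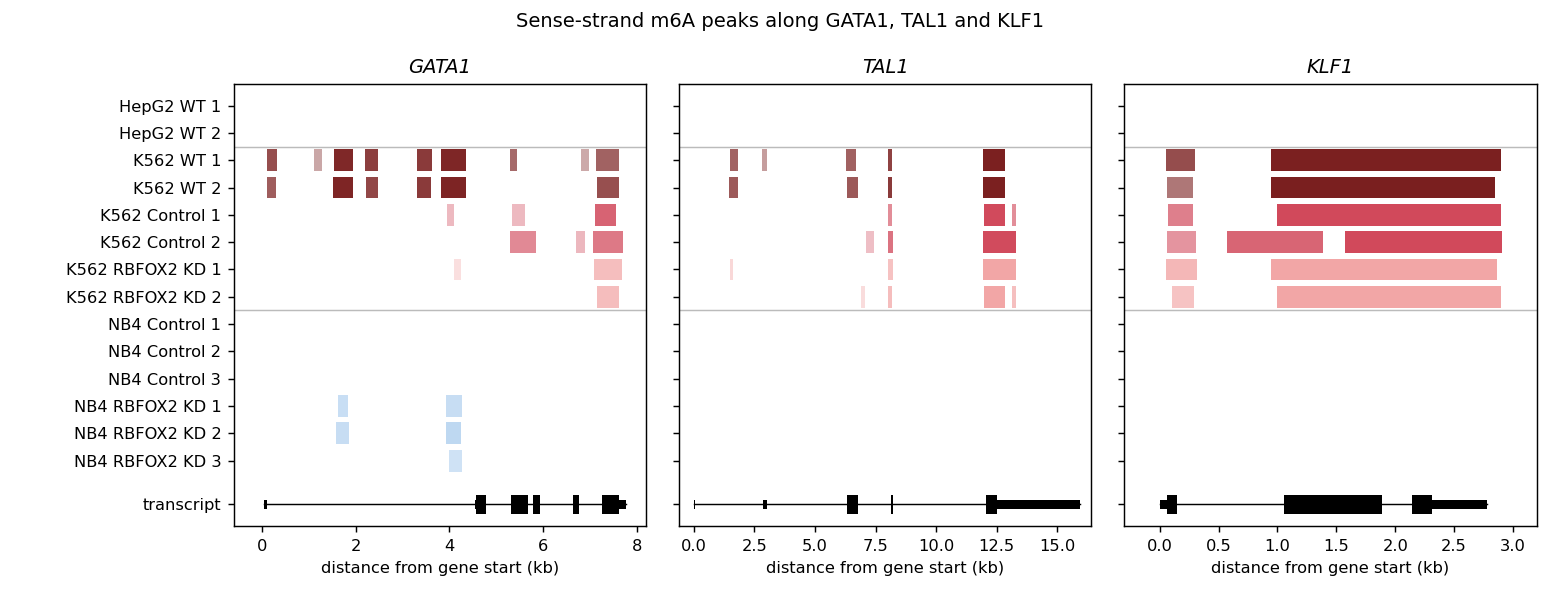
Sense-strand m6A peaks (blocks, coloured by group, denser for a higher rank percentile) in each library along GATA1, TAL1 and KLF1, by distance from the gene start in kilobases, above the canonical transcript (thick, coding; thin, untranslated). TAL1 and KLF1 carry blocks over the last exon in all 6 K562 libraries and none in HepG2 or NB4, and the dense blocks over GATA1 intron 1 appear in the 2 K562 WT libraries.

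GATA2, LMO2 and NFE2 carried a peak in their last exon in every library of both leukaemia lines, high in the lists for GATA2 and NFE2 and lower for LMO2. The letters at these summits are printed because they mark the regions shared by the lines.
GATA2 last exon, 3′ UTR, chr3:128480807-128480836, minus strand: ctgcctccgcaccTGACCgctgcccaggtg
NFE2 last exon, coding, chr12:54292632-54292732, minus strand: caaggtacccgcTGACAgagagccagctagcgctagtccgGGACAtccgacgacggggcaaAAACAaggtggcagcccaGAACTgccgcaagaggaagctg
LMO2 last exon, 3′ UTR, chr11:33859195-33859224, minus strand: ttattgggtatcaAGACAtagcatccaagt

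GATA2, the GATA factor of stem and progenitor cells (chr3:128479427-128493201, minus strand, 6 exons), held 1 and 1 peak in HepG2, 4 and 6 in K562 WT, 3 and 4 in K562 Control, 2 and 3 in K562 KD, 3, 5 and 3 in NB4 Control, and 5, 3 and 5 in NB4 KD. The means of 3.67 ± 1.37 in K562 and 4.0 ± 1.095 in NB4 (SD, n = 6 each) were not told apart by the test (exact permutation adjusted p = 0.979). Its last exon region (chr3:128479639-128481447) was 1 of 4 regions of the 10 genes listed in all 14 libraries, as 10.6% of regions on the strand of a gene were. The percentile was 91.5 and 91.8 in HepG2, 95.7 to 96.7 in K562 and 94.5 to 98.5 in NB4. The summit lay 186 to 241 bases after the start of the stop codon in every library.

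NFE2, a basic leucine zipper activator of globin genes (chr12:54292111-54301015, minus strand, 3 exons), held 2 to 3 peaks in every K562 and NB4 library, 1 in HepG2 WT 2 and 0 in HepG2 WT 1. The means were 2.17 ± 0.408 and 2.33 ± 0.516 peaks (SD, n = 6 each; exact permutation adjusted p = 1). Its last exon region (chr12:54292111-54293429) ranked at percentiles from 98.5 to 99.7 in K562, from 96.1 to 99.05 in NB4 and at 22.7 in HepG2 WT 2. The fold at the summit was higher in the 4 K562 hairpin libraries (25.7 to 32.9) than in K562 WT (12.8 and 11.4) and ranged from 8.27 to 21.1 in NB4. By the percentile of the highest peak the lines overlapped, yet NFE2 passed as higher in K562 (mean difference 1.46 percentile points, exact permutation adjusted p = 0.0310), as 5075 of 16227 tested genes did.

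LMO2, which links TAL1 to GATA factors (chr11:33858576-33892076, minus strand, 6 exons), held 3 and 4 peaks in K562 WT, 1 and 3 in Control, 4 and 3 in KD, 5 in each NB4 Control library, and 5, 6 and 5 in NB4 KD, with none in HepG2. NB4 exceeded K562 by a mean of 2.17 peaks (5.17 ± 0.408 against 3.0 ± 1.095, SD, n = 6 each; exact permutation adjusted p = 0.00967), and the libraries did not overlap. Without the 1000 bases upstream of the gene start the difference (K562 minus NB4) shrank to −1.33 peaks (exact permutation adjusted p = 0.0455). The percentile of the highest peak overlapped between the lines (exact permutation adjusted p = 0.577). The 3′ UTR region (chr11:33858820-33859653) was listed in all 12 leukaemia libraries, at 59.3 to 87.1 in K562 and 34.1 to 79.9 in NB4. The regions at the start of the gene went the other way. The first-exon region chr11:33891616-33892087 reached 47.6 to 87.8 in NB4, and in K562 it was not listed in Control 1 and reached 2.0 to 65.2 in the other 5. A region upstream of the start, with its summit at −905 bases (chr11:33892854-33893102) was listed in all 6 NB4 libraries and in K562 KD 1 alone of the rest.

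**Figure D3:**
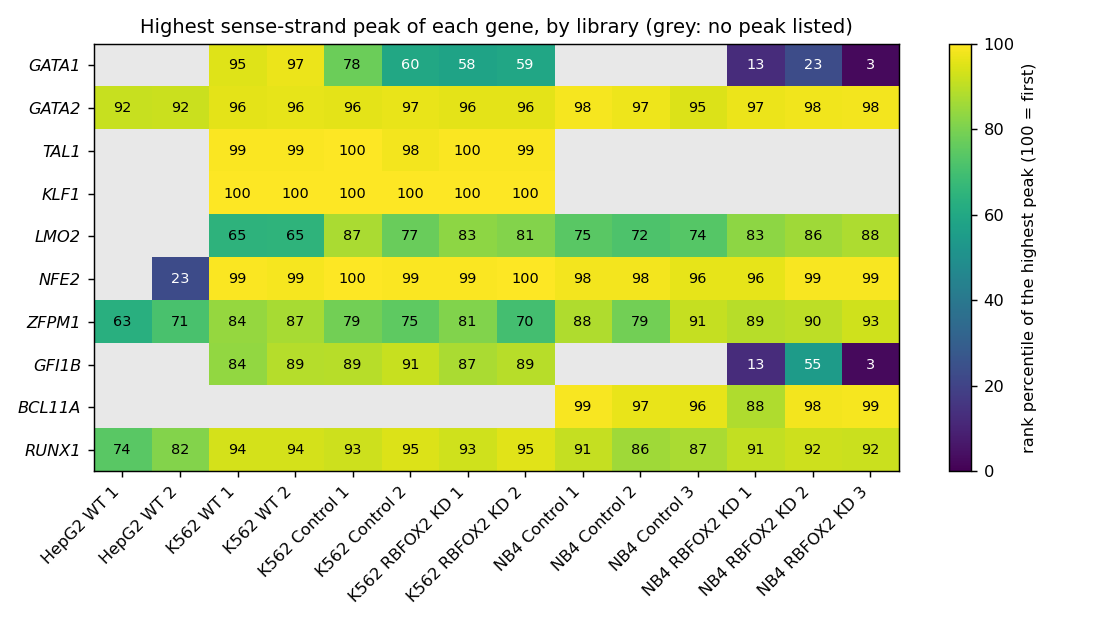
Rank percentile (colour, 0 to 100, printed in each cell rounded to whole percentiles) of the highest sense-strand peak of each gene (rows) in each of 14 libraries (columns). Grey marks no listed peak. KLF1, TAL1 and NFE2 stand at percentiles from 98.4 to 99.9 in the K562 lists, and NFE2 at 96.1 to 99.05 in the NB4 lists. BCL11A is listed in NB4 alone, and GATA1 falls from 95.2 and 97.0 in K562 WT to 58.0 to 77.7 in the other K562 libraries.

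BCL11A, RUNX1 and ZFPM1 held more peaks in NB4, mostly in introns. The letters printed are from the highest BCL11A summit, from regions listed in NB4 alone (BCL11A exon 2, RUNX1 introns 2 and 7), from the repeats of ZFPM1 intron 4, and from the RUNX1 region listed in all 14 libraries (intron 3, 30 bases).
BCL11A exon 4, coding, chr2:60461462-60461562, minus strand: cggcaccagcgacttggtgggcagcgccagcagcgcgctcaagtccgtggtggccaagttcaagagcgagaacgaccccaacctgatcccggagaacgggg
BCL11A exon 2, coding, chr2:60546226-60546326, minus strand: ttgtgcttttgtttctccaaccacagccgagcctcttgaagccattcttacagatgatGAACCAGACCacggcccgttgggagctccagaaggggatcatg
ZFPM1 intron 4, chr16:88518465-88518565, plus strand: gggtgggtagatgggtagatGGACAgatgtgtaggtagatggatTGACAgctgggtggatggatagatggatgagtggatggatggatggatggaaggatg
RUNX1 intron 3, chr21:34887431-34887460, minus strand: attttgccttcagGAACTtttcTAACAgcc
RUNX1 intron 2, chr21:34938518-34938618, minus strand: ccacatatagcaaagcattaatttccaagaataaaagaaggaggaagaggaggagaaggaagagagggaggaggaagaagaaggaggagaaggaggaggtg
RUNX1 intron 7, chr21:34808499-34808599, minus strand: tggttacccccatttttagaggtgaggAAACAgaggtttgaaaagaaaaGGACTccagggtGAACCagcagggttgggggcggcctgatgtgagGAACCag

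BCL11A, the zinc finger repressor of fetal globin (chr2:60450520-60554467, minus strand, 4 exons in the canonical transcript), held 10, 8 and 9 peaks in NB4 Control and 8 in each NB4 KD library, and 0 in all HepG2 and K562 libraries. The NB4 mean was 8.50 ± 0.837 (SD, n = 6; exact permutation adjusted p = 0.00967 against K562). Against NB4 and HepG2 together the adjusted p was 0.0686. The coding part of exon 4 (chr2:60460143-60462461) held the highest summit, at −1109 to −1079 bases from the stop codon, with 382 and 440 reads in NB4 Control 1 and 2 and 375, 420 and 380 in KD. Its percentile was 99.1, 96.8 and 96.2 in NB4 Control and 88.3, 98.3 and 98.6 in KD. The window of 101 bases around this summit holds no DRACH match. Exon 2 (chr2:60545972-60546409), intron 2 (chr2:60510135-60510553) and intron 3 (chr2:60467128-60468105) were the other 3 regions of BCL11A listed in all 6 NB4 libraries and in no other.

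RUNX1, the runt domain factor (chr21:34787801-36004667, minus strand, 9 exons in the canonical transcript, which ends at chr21:34787801 and starts at chr21:35049302), held the most regions, 33 of the 109 on the sense strand of the 10 genes, and its annotated span of 1217 kb is also the longest. It held 1 and 2 peaks in HepG2, 8 and 12 in K562 WT, 8 and 6 in Control, 10 and 9 in KD, 15, 17 and 19 in NB4 Control, and 26, 24 and 21 in NB4 KD. The means were 8.83 ± 2.04 in K562 and 20.3 ± 4.18 in NB4 (SD, n = 6 each; exact permutation adjusted p = 0.00967). The region chr21:34886872-34888848 was listed in all 14 libraries. Its highest summit lies in intron 3 of the canonical transcript and in an exon of another RUNX1 transcript, and the region reaches into canonical exon 4. Its percentile was 74.4 and 81.6 in HepG2, 92.5 to 95.4 in K562, and 21.0 in NB4 KD 1 against 80.8 to 92.4 in the other 5 NB4 libraries. By the percentile of the highest peak RUNX1 passed in the other direction (93.8 ± 1.11 in K562, 89.9 ± 2.74 in NB4, SD, n = 6 each; exact permutation adjusted p = 0.00649). In that direction 5075 of 16227 tested genes passed.

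In RUNX1, 4 regions in introns 2 and 7 were listed in all 6 NB4 libraries and in no other, at chr21:34808402-34808679, chr21:34909824-34910063, chr21:34938421-34938705 and chr21:35033002-35033209. Together with those of BCL11A they made up the 8 such regions of the 109, a pattern that 3.15% of the 69153 regions on the strand of a gene had. Far upstream of the canonical transcript, chr21:35496775-35497009 was listed in 5 K562 libraries and in no other, and chr21:35494121-35494343 in 4.

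ZFPM1, the GATA1 cofactor FOG1 (chr16:88453280-88537031, plus strand, 10 exons), held 3 and 6 peaks in HepG2, 11 and 12 in K562 WT, 8 and 8 in Control, 8 and 5 in KD, 18, 13 and 13 in NB4 Control, and 21, 17 and 17 in NB4 KD. The means were 8.67 ± 2.50 in K562 and 16.5 ± 3.08 in NB4 (SD, n = 6 each; exact permutation adjusted p = 0.00967). Of the ZFPM1 peaks, 32 of 99 in NB4 and 10 of 52 in K562 lay in intron 4, where 4 neighbouring regions between chr16:88518150 and chr16:88520481 were listed in all 6 NB4 libraries and both K562 WT libraries, and in no hairpin library of K562. Their percentiles ran from 50.03 to 92.9 in NB4 and from 3.10 to 71.2 in K562 WT. The window printed above consists largely of short repeated units, and how uniquely reads map there was not tested. Intron 3 (chr16:88494494-88494901) was listed in all 6 NB4 libraries at 65.1 to 76.7 and in K562 Control 2 and KD 1 at 17.5 and 12.7. The last exon (chr16:88532695-88535838) and intron 6 (chr16:88530704-88531295) were listed in all 14 libraries. The last exon stood at 70.1 to 87.1 in K562 and 56.7 to 79.4 in NB4. Intron 6 stood at 36.7 to 64.2 in K562 and 47.0 to 81.5 in NB4.

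**Figure D4:**
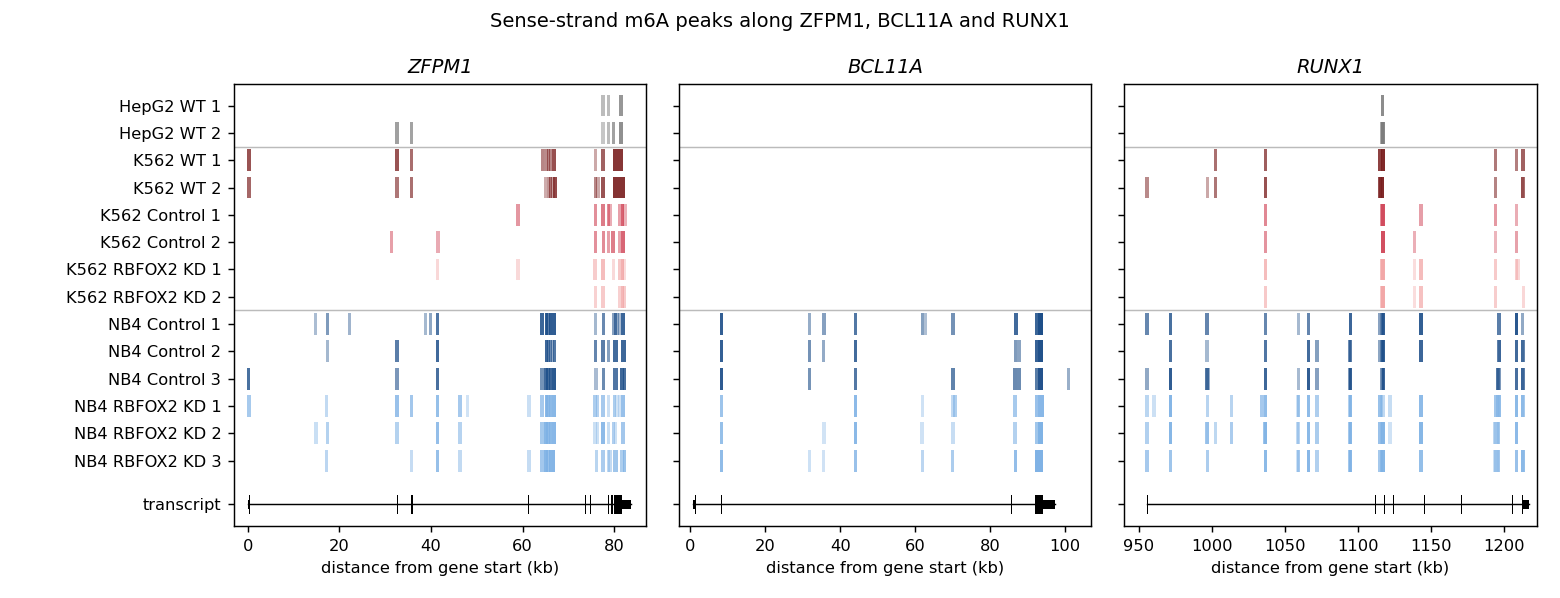
Sense-strand m6A peaks (blocks, coloured by group, denser for a higher rank percentile, widened where needed to be visible) in each library along ZFPM1, BCL11A and the canonical transcript of RUNX1, by distance from the annotated gene start in kilobases. NB4 libraries carry more blocks than K562 at all 3 genes, and K562 and HepG2 carry none at BCL11A.

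Across the 10 genes, 6 of the 109 sense regions were listed in all 6 K562 libraries and in no other, where 5.49% of regions on the strand of a gene were. They were the 2 of KLF1, 2 of TAL1, 1 of GFI1B and 1 of GATA1. The place of the peaks of these genes differed with the line. In K562, 19.4% of 237 sense peaks had their summit in a 3′ UTR, 13.9% in a coding exon and 59.1% in an intron of the canonical transcript. In NB4 the shares of 349 peaks were 7.45%, 14.6% and 71.9%. These shares weigh genes by their peaks, and over all 14 libraries RUNX1 held 153 intron peaks and ZFPM1 114, against 33 in BCL11A and 21 or fewer in each other member. They count a region once for each peak in each library, and the shares over all genes are not given here. A trait of the 10 genes therefore cannot be told apart from a trait of the whole lists.

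HepG2 cells, which are not blood cells, listed 4 of the 10 genes. GATA2, ZFPM1 and RUNX1 were listed in both libraries, NFE2 in 1 and no other member in either. With 6 against 2 libraries the exact permutation test cannot go below p = 0.0714, and none of the 10 genes, and 0% of all genes, passed. At that smallest p stood 8 members, all higher in K562 (27.4% of all tested genes stood there), namely GATA1, GATA2, TAL1, KLF1, LMO2, NFE2, GFI1B and RUNX1. The HepG2 lists were the shortest of the series, and the part of list length in this was not tested. ZFPM1 had 8.67 ± 2.50 peaks in K562 and 4.5 ± 2.12 in HepG2 (SD, n = 6 and 2; exact permutation p = 0.143). BCL11A had no peak in either line.

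Knockdown of RBFOX2 was compared with Control within K562 and NB4. By peak number none of the 10 genes and 0% of 15331 genes passed the exact permutation test stratified by line, which cannot go below p = 0.0167, whereas 179 genes had an unadjusted p under 0.05. With the rank percentile of the highest peak as the measure, 0 genes passed too. RUNX1 was 1 of those at the smallest p, with 8 and 6 peaks in K562 Control against 10 and 9 in KD, and 15, 17 and 19 in NB4 Control against 26, 24 and 21 in KD (exact permutation p = 0.0167, adjusted p = 1). Every KD library lay above every Control library of its line. NB4 KD libraries were deeper than NB4 Control 1 and 2, and with depth matched the RUNX1 numbers in NB4 were 15, 17 and 18 against 25, 24 and 21. Matching rescaled called peaks alone and kept 39140 of 39803 in NB4 KD 1, so the part of depth was not tested. The NB4 KD lists were also longer, with 36777 to 39803 peaks against 29609 to 33497 in NB4 Control. The part of list length in the RUNX1 numbers was not tested.

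GATA1 moved in opposite directions in the 2 lines, from 3 and 3 peaks to 2 and 1 in K562 and from 0 to 2, 2 and 1 in NB4. The NB4 KD peaks stood low in their lists, the highest at ranks 34725, 28815 and 35806. These ranks lie past the 22700 peaks kept when all lists were cut to the same length. The difference between the KD effects (K562 minus NB4) was −3.17 peaks, with an exact permutation p of 0.0167, the smallest the design allows, and an adjusted p of 1. Of 15331 genes, 155 had an unadjusted p under 0.05 for this difference. GFI1B went from 3 and 2 to 3 and 3 in K562 and from 0 to 1 peak in each library of NB4. In the other 7 members the Control and KD libraries overlapped or were tied in both lines. Their mean changes ran from −1.5 peaks (ZFPM1 in K562) to 3.67 peaks (ZFPM1 in NB4).

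**Figure D5:**
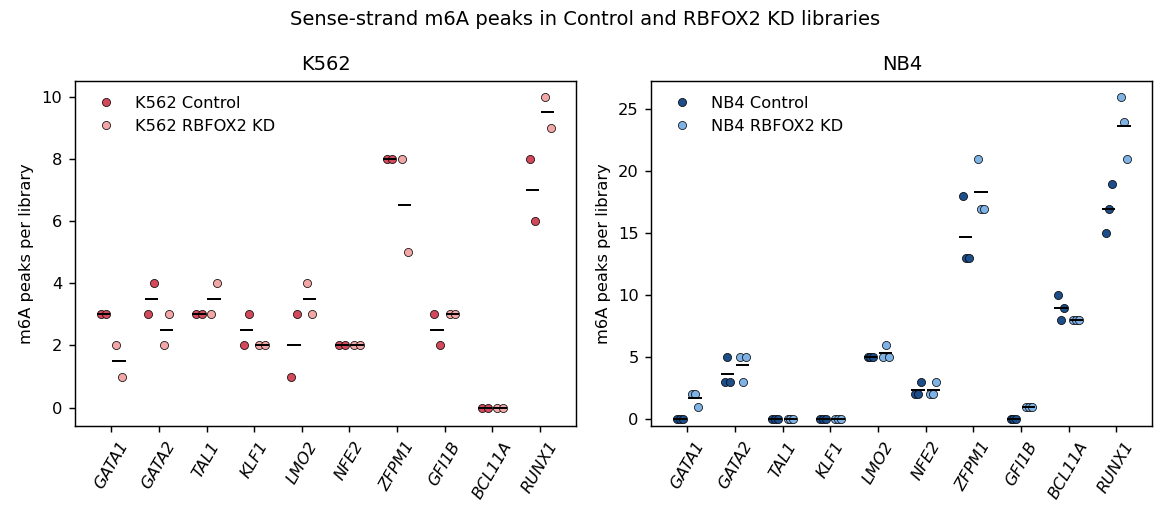
Number of sense-strand m6A peaks per library (y axis, linear) at the 10 genes in Control and RBFOX2 KD cells of K562 (left) and NB4 (right). Points are libraries and bars are group means. RUNX1 lies higher in every KD library of both lines, and GATA1 lies lower in K562 KD and higher in NB4 KD.

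By region, 3 of 43 sense regions of the 10 genes in K562 were listed in both Control and in no KD library, against 1.71% of regions on the strand of a gene, and 0 were gained, against 1.46%. The 3 were coding: exon 3 of GATA1 (chrX:48791838-48792380, percentiles 4.498 and 45.5 in Control), exon 3 of GATA2 (chr3:128485826-128486209, 37.3 and 23.1) and exon 7 of ZFPM1 (chr16:88531983-88532150, 41.9 and 27.1). All 3 regions were listed in other groups too, the GATA1 region in K562 WT 1, the GATA2 region in both K562 WT and 5 NB4 libraries, and the ZFPM1 region in both HepG2 and 4 NB4 libraries. In NB4, 0 of 85 sense regions were lost, against 0.516%, and 5 were gained, against 3.57%. Those 5 lay in intron 1 of GATA1, the 3′ UTR of GFI1B, intron 3 of ZFPM1, and introns 7 and 2 of RUNX1 (chr21:34810616-34810878 and chr21:34946129-34946426). Their percentiles in KD ran from 0.417 to 59.2. The RUNX1 intron 7 region was also listed in all 6 K562 libraries. With all lists cut to the same length there was no K562 loss and no NB4 gain (1 region was gained in K562), and with depth matched they numbered 3 and 4. Leaving out 1 library gave 6 to 9 changed regions in K562, where K562 Control 1 (9), Control 2 (7), KD 1 (6) and KD 2 (6) each moved the count, and 10 in NB4 without KD 3. With 2 against 2 or 3 against 3 libraries no exact permutation test within a line can reach p = 0.05 (smallest 0.333 and 0.1).

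On the opposite strand the 10 genes held 19 regions. Over all exons with a gene on 1 strand alone, 93.2% of 182464 summits lay on the strand of the gene. How far antisense peaks reflect the strand signal of strong sense peaks was not tested. Antisense regions inside the last exons of KLF1 (chr19:12884456-12884918, percentiles 30.4 to 64.4) and NFE2 (chr12:54292302-54292831, 21.2 to 48.7) were listed in all 6 K562 libraries and in no other, opposite the highest sense peaks. The NFE2 antisense region also lies in ENSG00000258344, a gene annotated on that strand. Over the first intron of GATA2 the antisense gene GATA2-AS1 held 2 regions (chr3:128490190-128491177 and chr3:128491703-128493140) in all HepG2 and K562 libraries and in no NB4 library, at percentiles of 52.1 to 88.5 and 39.5 to 90.2. An antisense region in GATA1 intron 1 (chrX:48786860-48787937) reached 93.8 and 96.0 in K562 WT, 24.9 to 52.7 in the other K562 libraries and 4.69 and 8.41 in NB4 KD 1 and 2. In ZFPM1 an antisense region of intron 3 (chr16:88506885-88507073) was listed in all 3 NB4 Control libraries (29.1, 44.8 and 14.2) and in no KD library. TAL1, LMO2, GFI1B and BCL11A had no antisense peak in any library.

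Sequence around the summits was described for 101 bases on the RNA strand, with matches on that strand alone. DRACH occurred in 87 of the 109 member regions (79.8%) at the highest summit and in 89.7% of all regions on the strand of a gene. GGACT, a form of DRACH, occurred in 12.8% and 16.5%. AGATG, which the study connects with RBFOX2 and which can overlap a DRACH match at its ends, occurred in 17.4% and 16.2%, and TGCATG, the known RBFOX2 site, in 1.83% and 2.38%. Windows made of at least 80% A or G, a limit chosen after the values were seen, were 6 of 109 member regions (5.5%) and 1.36% of all regions. These 6 were 4 in intron 1 of GATA1, with 82.2% to 93.1% purines, and 2 in intron 2 of RUNX1, with 80.2% and 84.2%. The strongest of them, at chrX:48790605 in GATA1, holds no DRACH match, as printed above.

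The other genes of the network were counted from lists. Of 20 partners and cofactors of the 10 factors, 19 were tested between K562 and NB4, 1 passed as higher in K562 (19.6% of all tested genes did) and 1 as higher in NB4 (13.8% did), with a median difference of −0.333 peaks. BACH1, the repressor that competes with NFE2, had 12 ± 1.67 peaks in K562 and 7 ± 2.19 in NB4, and CBFA2T3 (ETO2), the corepressor in TAL1 complexes, had 21.3 ± 1.97 and 31.3 ± 3.204 (SD, n = 6 each; exact permutation adjusted p = 0.00967 for both). Of the 20, 17 were listed in every K562 library and 16 in every NB4 library, and HDAC2 had no peak in any library. Of 28 erythroid target genes, 23 were tested, 14 passed as higher in K562 and 1, ALAD, as higher in NB4 (19.6% and 13.8% of all tested genes), with a median difference of 1.17 peaks. The largest differences were at ANK1, the red cell ankyrin (18.2 ± 0.983 in K562, 0.333 ± 0.516 in NB4), at HBG2 (17.8 ± 2.04 and 0) and HBE1 (17.5 ± 1.52 and 0), fetal and embryonic globins, and at SPTB, erythrocyte spectrin (10.3 ± 3.88 and 0), with exact permutation adjusted p = 0.00967 for each. The annotated spans of HBG2 and HBE1 overlap on 1 strand, so the 2 genes share peaks, and HBG1 and HBG2 are near-identical copies whose reads cannot be parted with certainty.

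Over the 14 libraries, the genes whose rank percentile of the highest peak varied most like that of GATA1 were ENSG00000269934, ANO7L1, ENSG00000254468, GLUD1P2 and CACNA1I, among 15357 compared. Pearson's r ran from 0.980 to 0.983. This is a description of 14 points that share line, library and depth, and GATA1 was 0 in 5 of them.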

How the data were processed

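The series holds 14 m6A IP libraries and 14 input libraries of caRNA. According to the study's methods and the submitters' processing notes, reads were trimmed with Trimmomatic 0.39, aligned strand-specifically to hg38 with HISAT2 2.1.0 (GENCODE release 29), split by strand with SAMtools 1.9, and peaks were called per library and strand with MACS2 (extension 150 bases, up to 5 duplicates kept, genome size 1.3e+08, q under 0.01). Whether the input served as control is not given in the sources used here. The deposited peak lists give a score, a fold (ratio of summit pileup to local background) and −log10 p and −log10 q values, all made by the authors from single, unpooled libraries. The score was read and the fold and −log10 q values were used as deposited.

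Summits were assigned to genes of GENCODE release 44 (hg38), from 1000 bases upstream to the gene end. Overlapping peaks of the libraries were merged into regions. Peak numbers were compared by exact two-sided permutation tests over libraries (knockdown stratified by line) for all genes with a peak in at least 2 libraries, with Benjamini-Hochberg adjustment over all of them and a threshold of 0.05. The rank percentile of a peak is its rank by −log10 q in its own list, and 0 stands for no listed peak. Read depth was recovered from fold and p-values where pileups came out whole within 0.05. Python 3.11.15, numpy 2.4.6, pandas 2.3.3, scipy 1.17.1 and pysam 0.24.0 were used, and the test was tested on simulated data. All 10 members are named, and of the partner and target lists the genes with the largest differences past the threshold. HDAC2, ALAS2, MPO, ELANE, CSF3R, ALB, AFP, APOB, HBG1, TFRC and SLC25A37 were named after their values were seen. The members and lists were chosen with earlier results of these data known. Transcript levels and the extent of the knockdown were not analysed here.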

Additional observations from a re-analysis of the deposited data

Results flagged for a closer look

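Among 40 groups of 6 libraries (10 genes, peak number and rank percentile, K562 and NB4), 8 held a library far from the others by Dixon's ratio, where chance gives about 1 in 20. For peak number these were KLF1 in K562 Control 2 (3 peaks, group 2 to 3), NFE2 in K562 WT 1 (3, group 2 to 3), LMO2 in K562 Control 1 (1, group 1 to 4) and LMO2 in NB4 KD 2 (6, group 5 to 6). Each of these differs from its nearest neighbour by 1 or 2 peaks, and tied small counts raise the ratio. For the rank percentile of the highest peak they were TAL1 in K562 Control 2 (98.4, group up to 99.6), ZFPM1 in NB4 Control 2 (78.7, group up to 92.9), GFI1B in NB4 KD 2 (55.0, group from 0) and BCL11A in NB4 KD 1 (88.3, group up to 99.1). The groups pool WT, Control and KD libraries of a line.

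The effect of RBFOX2 KD on the peak number of GATA1 was opposite in the lines, a fall in both K562 KD libraries and a rise in all 3 NB4 KD libraries. The NB4 KD peaks had rank percentiles of 23.4 or lower and lay past rank 22700, the equal list size. The difference of the effects (K562 minus NB4) was −3.17 peaks, with an exact permutation p of 0.0167 and an adjusted p of 1 over 15331 genes.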

How the results depend on the processing

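Of the 10 genes, 7 differed between K562 and NB4, and 7 or 8 did under all alternatives but one. By the rank percentile of the highest peak the 8 were a different set. LMO2 did not pass (exact permutation adjusted p = 0.577), while GATA1 (0.00649) and NFE2 (0.0310) did. RUNX1 passed by that measure as higher in K562, the reverse of its peak number. Against NB4 and HepG2 together the number was 4, since LMO2 (−0.875, adjusted p = 0.759), ZFPM1 (−4.83, 0.258), BCL11A (−6.38, 0.0686) and RUNX1 (−6.79, 0.278) no longer passed the exact permutation test and GATA1 did (3.38, 0.0388). There GATA2 (0.417) and NFE2 (0.292) changed sign, as NFE2 did with equal list sizes (0.167), none of them past the threshold. GATA1 also passed with equal list sizes (3) and without K562 KD 2 (3.77). Regions changed on KD numbered 3 in K562 and 5 in NB4. With equal list sizes they were 1 and 0, and with at least 50% of a region covered NB4 had 8. Leaving out 1 library gave 6 to 9 in K562 and 6 to 10 in NB4. Over all genes, 3173 passed as higher in K562 and 2240 as higher in NB4, against 2113 and 2172 with equal list sizes and 5075 and 2906 by rank percentile. The causes were not tested beyond fewer peaks or libraries entering. Depth matching was chosen after seeing the data and is approximate in HepG2 WT and NB4 Control 3. It rescales peaks already called, so it does not show which peaks fewer reads would give.

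Same-numbered Control and KD libraries had negative correlations of their deviations across genes (−0.122 in K562 and −0.119, −0.0990 and −0.251 in NB4). In K562 the crossed numbers gave 0.122, because the deviations of 2 libraries from their mean mirror each other. Deviations within so few libraries are tied to each other, so these values cannot decide whether same-numbered libraries share a batch. With a replicate block, 0 members passed for KD, where 32 arrangements allow no p below 0.0625. With the K562 numbers crossed, the replicate block, added after seeing the data, gave 0 as well.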
